A study of Mus musculus with 16 samples.

Results

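The Hox cluster genes are the homeobox genes that stand side by side in the HoxA, HoxB, HoxC and HoxD clusters. They were taken as every row of the deposited table named Hoxa, Hoxb, Hoxc or Hoxd followed by a number alone, which gave 39 of 37255 gene intervals, 11 in HoxA, 10 in HoxB, 9 in HoxC and 9 in HoxD. The study ran ATAC-seq, in which a transposase cuts accessible DNA and tags it for sequencing, on retinal ganglion cells, the neurons whose axons form the optic nerve. Per the labels these cells were isolated by FACS from the eyes of female mice. Experimental autoimmune encephalomyelitis (EAE) is an immune attack on myelin that reaches the optic nerve. In the mice of the EAE libraries it had been started at 7 to 8 weeks of age. The libraries were naive controls (n = 5), and EAE at the presymptomatic (n = 4), onset (n = 3) and peak (n = 4) stages. The labels name no strain, no antigen, no marker used for sorting and no age for the naive controls. They leave unsaid whether each library is a different mouse. The p-values therefore weigh differences against the spread among libraries, which may be partly technical.

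Hox genes encode homeodomain transcription factors that give cells their position along the head-to-tail axis of the embryo. Their order on the chromosome follows the order of their expression, with low-numbered genes of each cluster used towards the head and high-numbered genes towards the tail, and genes with the same number in different clusters (paralogs) descend from a common ancestor. In tissues in front of the hindbrain, the retina among them, the clusters are classic targets of Polycomb repression. Whether inflammation of the optic nerve is accompanied by a change of accessibility over this normally silent chromatin is the question that the stages put to these genes.

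Each cluster also carries microRNA genes, and the deposited table had intervals for them. The mature sequences are shown because they pair the clusters by content as the protein-coding paralogs do. They come from RefSeq (GRCm38.p6), are written from 5′ to 3′, and have the seed, bases 2 to 8, in capitals.
miR-10a-5p (HoxB): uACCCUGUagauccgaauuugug
miR-10b-5p (HoxD): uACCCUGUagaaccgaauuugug
miR-196a-5p (HoxB and HoxC): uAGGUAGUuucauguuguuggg
miR-196b-5p (HoxA): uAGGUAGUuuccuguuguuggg
With positions counted from 1 at the 5′ end, miR-10a-5p and miR-10b-5p shared a seed and differed by U12A, and miR-196a-5p and miR-196b-5p shared another seed and differed by A12C. Mir10a lay inside the Hoxb3 interval and Mir10b inside the intervals of both Hoxd3 and Hoxd4, so their reads were also among those of these genes.

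The interval behind each value decides what it can show. The deposited table is named for windows of 1000 bp and transcription starts, but its values were those of gene bodies with 1000 bp taken off each end. The lengths implied by the deposited RPKM values had this form, and so did the counts, whose median of mean counts was 0.312 for spans of 1900 to 2100 bp, where almost nothing is left after trimming, against 4.75 for spans of 900 to 1100 bp and 3.69 for spans of 2900 to 3100 bp. On this reading the deposited start of every Hox gene here lay outside its own interval. Among the 22 Hox genes matched to a RefSeq promoter sequence, other starts of Hoxa10, Hoxb8, Hoxc4, Hoxd10 and Hoxd11 lie inside their own intervals. These intervals can therefore include a promoter of the gene itself. The Hox genes without a matched sequence were not checked for this. Hoxc12, with a span under 2000 bp, has as interval the stretch between the crossed ends, 335 bp. Hox genes are short, and what was left of them ranged from 17 bp for Hoxa4 to 42006 bp for Hoxa3, with a median of 1518 bp. The 10 members with under 500 bp were Hoxa2, Hoxa4, Hoxa6, Hoxa13, Hoxb2, Hoxb13, Hoxc11, Hoxc12, Hoxd1 and Hoxd9. They held between 1 read (Hoxa4) and 19 reads (Hoxd9) over the 16 libraries together, and they were not ranked. The other 29 members were. Over all 39 genes, 23 had a mean count under 5 reads per library and 14 had 0 reads in at least 8 libraries, where a count of 0 allows up to 3 reads by counting error alone, if reads are independent. Most counts were even, 67.2% of those above 0 over Hox genes, and whether the reads of a pair were counted separately, which would widen that limit, was not tested.

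Some intervals also contained promoters of neighbours nested inside a long gene. By the deposited coordinates the starts of Hoxa4, Hoxa5 and Hoxa6 lay in the Hoxa3 interval, that of Hoxb4 in the Hoxb3 interval, that of Hoxd4 in the Hoxd3 interval and that of Hoxd10 in the Hoxd11 interval. Intervals nested in a longer one never had more reads than their container in 175712 comparisons, so a read over a nested gene was counted for both. For each of the long paralog group 3 genes, 1 nested promoter is printed with every CG in capitals, from RefSeq (GRCm38.p6), 250 bases before to 50 bases after the start on the gene's own strand.
Hoxa5, chr6:52204538-52204837, minus strand: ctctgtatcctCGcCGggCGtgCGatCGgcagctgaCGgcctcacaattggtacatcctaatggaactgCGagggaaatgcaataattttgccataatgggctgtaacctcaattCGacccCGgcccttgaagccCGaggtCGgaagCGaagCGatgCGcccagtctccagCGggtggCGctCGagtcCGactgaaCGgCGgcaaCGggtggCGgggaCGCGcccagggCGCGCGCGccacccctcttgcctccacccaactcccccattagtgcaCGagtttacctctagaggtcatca
Hoxb4, chr11:96318017-96318316, plus strand: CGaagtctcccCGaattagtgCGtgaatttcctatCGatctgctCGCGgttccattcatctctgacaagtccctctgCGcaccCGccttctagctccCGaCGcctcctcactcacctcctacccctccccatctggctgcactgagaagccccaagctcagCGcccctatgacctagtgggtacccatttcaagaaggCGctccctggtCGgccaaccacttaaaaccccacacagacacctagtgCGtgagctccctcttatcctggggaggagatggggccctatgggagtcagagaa
Hoxd4, chr2:74721728-74722027, plus strand: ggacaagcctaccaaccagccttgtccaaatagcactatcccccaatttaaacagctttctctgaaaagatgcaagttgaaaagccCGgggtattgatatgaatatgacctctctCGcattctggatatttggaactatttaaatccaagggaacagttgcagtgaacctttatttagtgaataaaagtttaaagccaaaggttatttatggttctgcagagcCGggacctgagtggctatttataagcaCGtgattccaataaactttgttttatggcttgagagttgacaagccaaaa
The Hoxa5 promoter held 29 CG, the Hoxb4 promoter 14 and the Hoxd4 promoter 4, so the nested starts differed widely in the CpG content that marks Polycomb-bound promoters. RefSeq promoter sequences were matched for 22 of the 39 genes, with 24 promoters. Their median was 14.5 CG, against 7 CG over all 32851 mouse promoters of the same length, and 20 of the 24 lay above that median. The retinal homeobox genes had a median of 18 CG and other Polycomb targets 16.5 CG, so a high CG count was not confined to Hox promoters.

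Hox proteins bind DNA together with TALE cofactors of the Pbx, Meis and Pknox families, at a paired site whose letters TGATNNAT were searched on both strands. The letters occurred in 4 of the 24 Hox promoters (16.7%), against 8.85% of all promoters. The promoter of Hoxb1, the hindbrain gene whose product is known to act on its own promoter through such a site, held 1 match, shown with its surroundings and the match in capitals.
Hoxb1, chr11:96365576-96365623, plus strand: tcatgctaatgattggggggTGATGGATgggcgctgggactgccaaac
The match lay outside the counted interval of Hoxb1, and a match of letters is not a measured binding site.

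Read density, the number of reads per kb of interval and per M (megareads) of nuclear reads in intervals, put the Hox genes low among the genes of these cells. The median of the 29 ranked members was 0.364, against 0.626 over the 35258 nuclear intervals of at least 500 bp. Of the 29, 27 lay below that median, 18 below the lower quartile of 0.432 and 7 in the lowest 10%, under 0.303. Hoxa5, at 0.643, lay above it. All intervals of 500 to 2000 bp, the length common among Hox genes, had a median of 0.610. These ranks are descriptions, with no test, and because the libraries are bulk, fewer cells with open chromatin and less opening per cell cannot be told apart.

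The clusters were not alike. HoxC and HoxB had the lowest read densities, with median ranks at percentiles 9.58 and 13.6 of all intervals. All 7 ranked HoxC genes and 7 of the 8 ranked HoxB genes lay below the lower quartile. Base composition and mappability of the intervals were not computed. HoxD had a median percentile of 27.03, with 3 of 7 genes below the lower quartile, and HoxA of 38.5, with 1 of 7 below it. HoxC stayed within a narrow band, from percentile 6.44 (Hoxc10) to 14.8 (Hoxc13). HoxA was wider, with Hoxa7, an upper trunk gene, at 11.0 and Hoxa5, a gene of the lower neck, at 52.0.

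**Figure D1:**
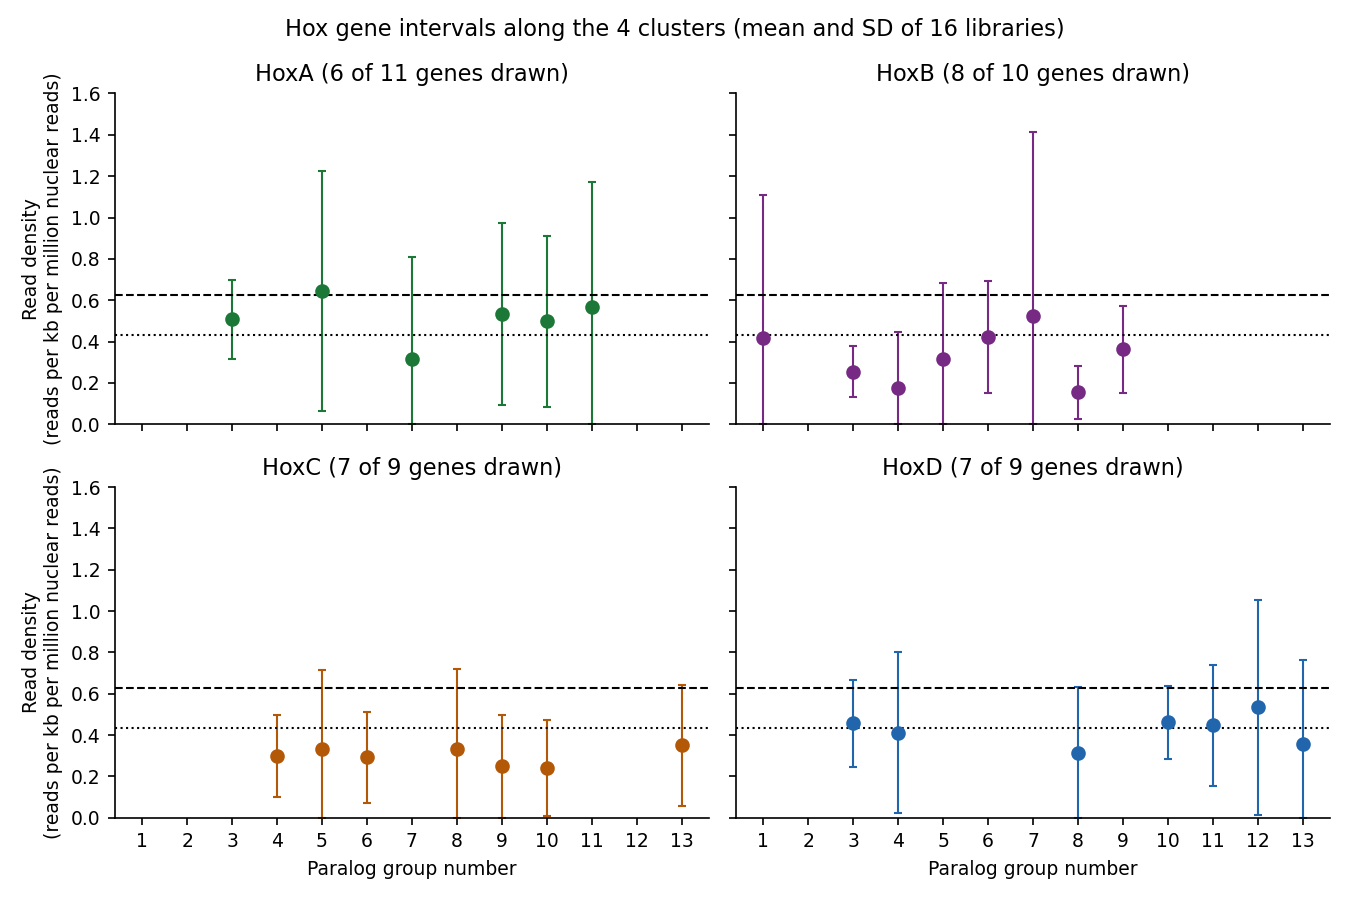
Mean read density (vertical axis, reads per kb per M nuclear reads) of Hox genes with an interval of at least 500 bp against its paralog group number, 1 panel per cluster, with bars for the SD over 16 libraries cut at 0, a dashed line at the median of all intervals (0.626) and a dotted line at their lower quartile (0.432). HoxC points and all HoxB points but that of Hoxb7 lie under the dotted line, and Hoxa5 (0.643) is the point above the dashed line.

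Summed over its members, HoxA had 0.516 ± 0.215 reads per kb per M and HoxD 0.450 ± 0.195, whereas HoxB had 0.281 ± 0.135 and HoxC 0.293 ± 0.162 (SD, n = 16 libraries). HoxA was denser than HoxB in 14 of the 16 libraries and denser than HoxC in 13, and HoxC was denser than HoxD in only 1 of the 16. Neither pair of like clusters was ordered as clearly, since HoxA exceeded HoxD in 11 libraries and HoxB exceeded HoxC in 7. The sums rest on 2911 reads in HoxA, 1649 in HoxB, 1275 in HoxC and 2416 in HoxD over all libraries, with 28 to 376 reads per cluster and library. All 4 clusters lay under the 0.805 that all intervals of at least 500 bp gave together, in every library for HoxB and HoxC and in 15 of the 16 for HoxA and HoxD.

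Olfactory and vomeronasal receptor genes, which neurons outside the nose keep silent, were measured the same way as another set of unused genes. They are no floor, since the median of the 1392 single receptor intervals was 0.697, above the 0.626 of all intervals. Summed, they had 0.587 ± 0.209 reads per kb per M (SD, n = 16) and took 0.192% to 0.559% of nuclear reads. HoxB was denser than the receptors in 1 of the 16 libraries, HoxC in 2, HoxA in 4 and HoxD in 6. The median ratio to the receptors was 0.507 for HoxB and 0.483 for HoxC, against 0.830 for HoxA and 0.780 for HoxD. Each cluster was thus below the summed receptors in most libraries.

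Position along the cluster gave no common slope. Genes of paralog groups 1 to 3 had 0.519 reads per kb per M in HoxA, those of groups 4 to 8 had 0.447 and those of groups 9 to 13 had 0.516. In HoxD these values were 0.458, 0.392 and 0.453. HoxB ran the other way round, with 0.256, 0.331 and 0.373 from the head end to the tail end. HoxC, which lacks the first 3 groups, had 0.299 in groups 4 to 8 and 0.281 in groups 9 to 13. The SD over libraries of these block values was 0.125 to 0.355, wider than the steps between blocks in every cluster, and the block of groups 1 to 3 is almost all 1 gene in HoxA, HoxB and HoxD.

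That gene is the paralog group 3 member, which patterns the hindbrain and neck and has the longest interval of its cluster in HoxA, HoxB and HoxD, so it carries the firmest counts. Hoxa3 had 0.508 ± 0.191 reads per kb per M, Hoxd3 0.457 ± 0.211 and Hoxb3 0.254 ± 0.125 (SD, n = 16), from totals of 2107 reads for Hoxa3, 1461 for Hoxd3 and 1029 for Hoxb3. Hoxa3 was the denser of its pair with Hoxb3 in 14 of 16 libraries, with a mean log2 ratio of 1.11 ± 0.96 (SD) and a two-sided paired permutation p of 0.000214 (0.000641 adjusted over the 3 pairs). Hoxd3 exceeded Hoxb3 in 13 of 16 libraries, with a mean log2 ratio of 0.88 ± 0.86 and a permutation p of 0.00116 (0.00174 adjusted). Hoxa3 and Hoxd3 differed by 0.23 ± 0.68, in 11 of 16 libraries, with a permutation p of 0.202. These 3 tests were chosen after the cluster densities had been seen. The genes hold most reads of their clusters (2911 in HoxA, 1649 in HoxB and 2416 in HoxD), so the tests are not independent of those densities. They compare stretches of DNA of unequal sequence and gene content within a library, whose part in the ratio was not tested.

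The mean ratios to Hoxb3 were above 0 at each stage. Naive libraries had a mean log2 ratio of Hoxa3 to Hoxb3 of 1.51 ± 1.40, presymptomatic libraries 0.61 ± 0.82, onset libraries 0.92 ± 0.52 and peak libraries 1.24 ± 0.69. For Hoxd3 to Hoxb3 the naive mean was 1.38 ± 0.88, the presymptomatic 0.28 ± 0.59, the onset 0.20 ± 0.66 and the peak 1.37 ± 0.58, so at the middle stages this ratio lay within its spread of 0. The presymptomatic ratio of Hoxa3 to Hoxb3 also lay within its spread of 0. Hoxa3 exceeded Hoxb3 in all 3 onset libraries and all 4 peak libraries, and in 4 of 5 naive and 3 of 4 presymptomatic libraries.

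**Figure D2:**
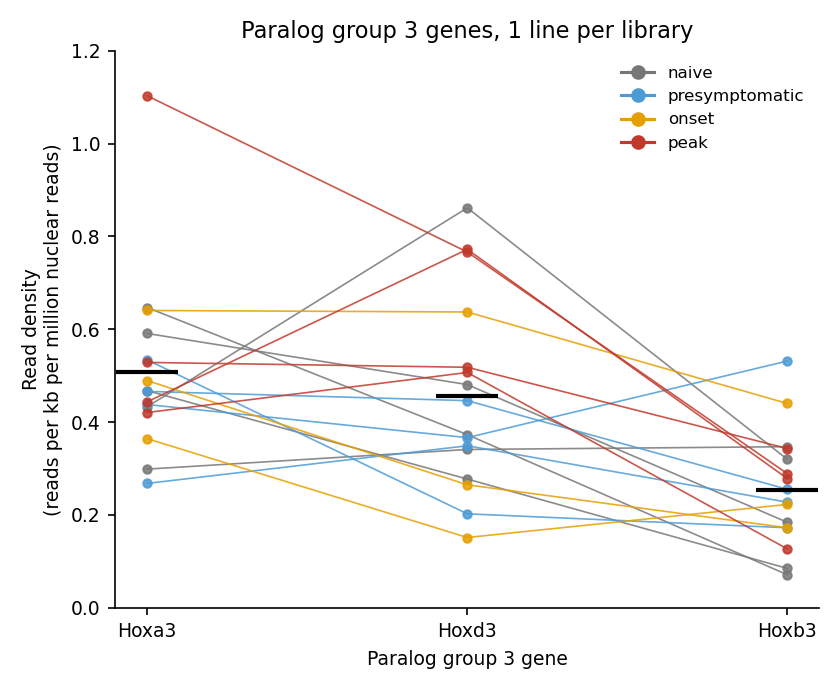
Read density (vertical axis, reads per kb per M nuclear reads) of Hoxa3, Hoxd3 and Hoxb3 in the same library, joined by a line and coloured by stage, with black bars for the means of 16 libraries. Most lines end lowest at Hoxb3, whose mean is 0.254 against 0.508 for Hoxa3 and 0.457 for Hoxd3, and the highest Hoxa3 point, 1.10, is peak replicate 1.

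Single genes on fewer reads overlapped between clusters. Of the members with enough reads to be tested, Hoxa10, a posterior gene of limb and urogenital tract, was the lowest in HoxA (0.497 ± 0.415). In HoxB, Hoxb6, a trunk gene, was the highest (0.422 ± 0.272) and Hoxb3 the lowest. In HoxC, Hoxc13, at the tail end and known for hair and nail, was the highest (0.351 ± 0.293) and Hoxc9, which specifies thoracic motor columns, the lowest (0.249 ± 0.251). In HoxD, Hoxd10 was the highest (0.462 ± 0.178) and Hoxd4, a hindbrain and neck gene, the lowest (0.412 ± 0.389). The SD of Hoxa10, Hoxc9 and Hoxd4 reached most of the mean or passed it, and the Hoxa10 values include 1.735 in peak replicate 1.

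The microRNA loci were read from small counts. Being shorter than 1000 bp, they were counted in windows of 1890 to 1932 bp about the gene, which include the start of the hairpin. Mir10a, in HoxB, had 0.222 ± 0.213 reads per kb per M (44 reads over 16 libraries), and Mir10b, in HoxD, 0.385 ± 0.320 (68 reads). Mir196b, in HoxA, had 0.459 ± 0.422 (93 reads), Mir196a-1, in HoxB, 0.316 ± 0.288 (58 reads), and Mir196a-2, in HoxC, 0.371 ± 0.302 (57 reads). Mir615, in HoxC, had 0.427 ± 0.318 (77 reads), and its window overlapped the Hoxc5 interval. Within each seed family printed above the HoxB copy was the lowest, but by less than 1 SD, and across families the loci did not keep the order of the clusters, since Mir615 lay above Mir10b. Of all 17 noncoding RNAs of the clusters that were looked for, 15 were in the table, with a median of 0.387 at percentile 19.1, close to the Hox genes themselves. They included Hottip at the tail end of HoxA (0.615 ± 0.338) and Hotair in HoxC (0.317 ± 0.345), long RNAs known for their ties to chromatin regulation of Hox genes.

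The genes that flank the clusters were set beside them. The 14 found in the table had a median of 0.476, at percentile 31.0. Next to HoxB, Skap1, an adaptor of T cell signalling, had 0.323 ± 0.118 and Ttll6, a tubulin glutamylase, 0.301 ± 0.186. Next to HoxA, Jazf1, a zinc finger cofactor, had 0.927 ± 0.196, Hibadh, an enzyme of valine breakdown, 0.635 ± 0.192, and Skap2, an adaptor of integrin signalling, 0.455 ± 0.097. The intervals beside HoxC spread most widely, from 0.303 ± 0.111 for Cbx5, which encodes a heterochromatin protein, to 1.599 ± 0.573 for Smug1, a DNA repair glycosylase. Evx1 and Evx2, the homeobox genes beyond the tail ends of HoxA and HoxD, had much the same density, 0.543 ± 0.268 for Evx1 and 0.529 ± 0.232 for Evx2.

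Homeobox genes that the retina does use had a median well above that of the Hox genes. The 34 retinal homeobox genes had a median of 1.08, at percentile 81.5, and ranged from 0.438 to 4.31, so the lowest of them lay within the range of the Hox genes. Other Polycomb targets, 29 of which were ranked, had 0.635, at percentile 51.0. The 4 ranked ParaHox and caudal genes, the evolutionary sisters of the Hox clusters, had 0.429, at percentile 24.5. Among the 9 TALE cofactors the range was wide. Meis1 had 1.54 ± 0.44, Pknox2 1.25 ± 0.24 and Meis2 1.08 ± 0.20, whereas 5 of the 9 lay between 0.499 and 0.566. Meis1, Pknox2 and Meis2 thus lay above every ranked Hox gene, and these 5 within the range of the Hox genes.

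**Figure D3:**
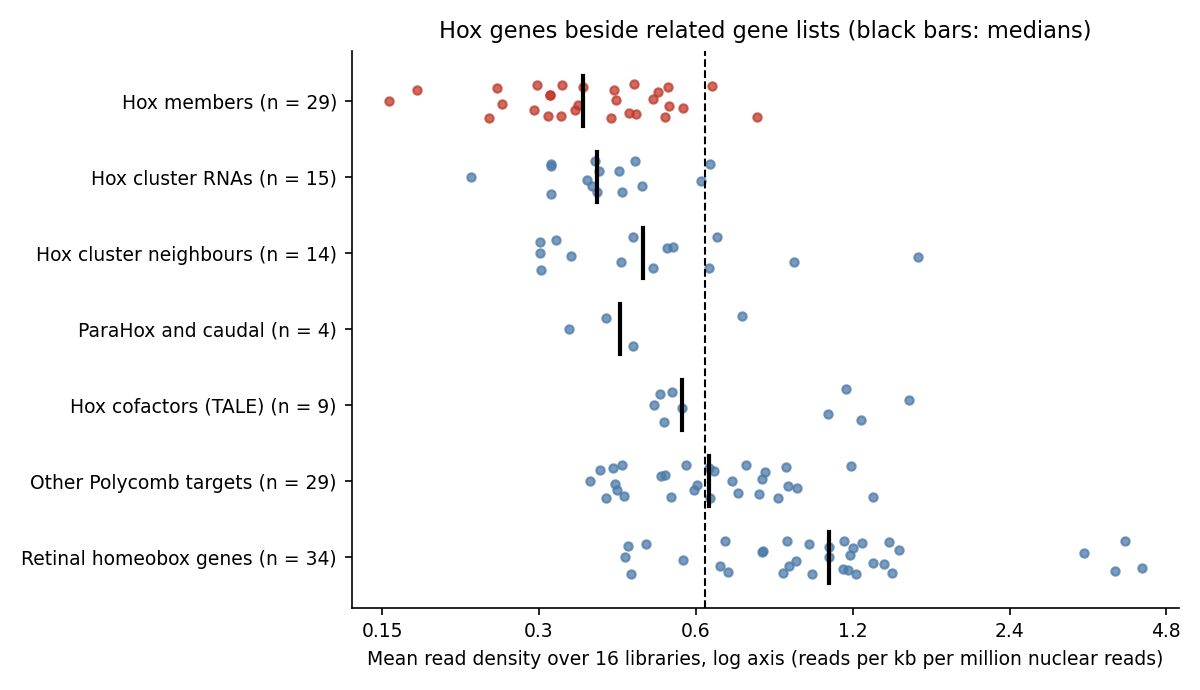
Mean read density over 16 libraries (horizontal log axis, reads per kb per M nuclear reads) of each gene with an interval of at least 500 bp, by gene list, with black bars for list medians and a dashed line at the median of all intervals (0.626). The Hox members have the lowest median (0.364) and the retinal homeobox genes the highest (1.08) of the lists drawn.

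The libraries differed in ways that touch every Hox value. Nuclear reads in intervals ranged from 1.58 to 15.1 M (median 5.96 M), with all 4 peak libraries between 1.58 and 3.70 M, and mitochondrial intervals took 8.36% to 64.7% of reads in intervals. Markers of ganglion cells had a median density of 0.988, at percentile 77.7. Rod markers stood above them at 2.07 and percentile 94.4, and amacrine and horizontal cell markers at 1.08 and percentile 81.4. The labelled cell type thus did not stand above these cells on this measure. Markers of Müller glia and astrocytes lay just below it, at 0.938 and percentile 75.1. Rod markers had 1.37 in naive, 1.40 in presymptomatic, 4.29 in onset and 1.24 in peak libraries. Microglia markers lay at percentile 26.2 and lymphocyte markers at 21.0. The part of depth and of other cells in the Hox values was not tested.

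Across the stages the cluster sums overlapped, apart from HoxD between peak and presymptomatic libraries. HoxD had 0.461 ± 0.221 reads per kb per M in naive (n = 5), 0.337 ± 0.074 in presymptomatic (n = 4), 0.373 ± 0.252 in onset (n = 3) and 0.605 ± 0.147 in peak libraries (n = 4; all SD). Its peak libraries had 0.717, 0.745, 0.462 and 0.495, against 0.395, 0.314, 0.243 and 0.397 in presymptomatic libraries, and these groups did not overlap. Of all single intervals tested, 2.72% had groups without overlap in this comparison. Hoxd3 holds 1461 of the 2416 HoxD reads, so this and the Hoxd3 result below are not separate observations. Against the naive libraries, at 0.846, 0.312, 0.319, 0.417 and 0.413, the peak libraries were higher than 4 of 5 and lower than naive replicate 1.

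HoxA had 0.479 ± 0.152 in naive, 0.441 ± 0.094 in presymptomatic, 0.505 ± 0.164 in onset and 0.643 ± 0.377 in peak libraries. Its peak mean rests on replicate 1 at 1.21, next to 0.419, 0.524 and 0.426 in the other 3, which lay among the naive values of 0.296 to 0.658. HoxC had 0.250 ± 0.212 in naive, 0.301 ± 0.151 in presymptomatic, 0.245 ± 0.197 in onset and 0.377 ± 0.091 in peak libraries. HoxB had 0.240 ± 0.128 in naive, 0.322 ± 0.205 in presymptomatic, 0.293 ± 0.143 in onset and 0.284 ± 0.093 in peak libraries. In both, the lowest and the highest naive library differed by more than any 2 stage means. No test was run on these sums.

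**Figure D4:**
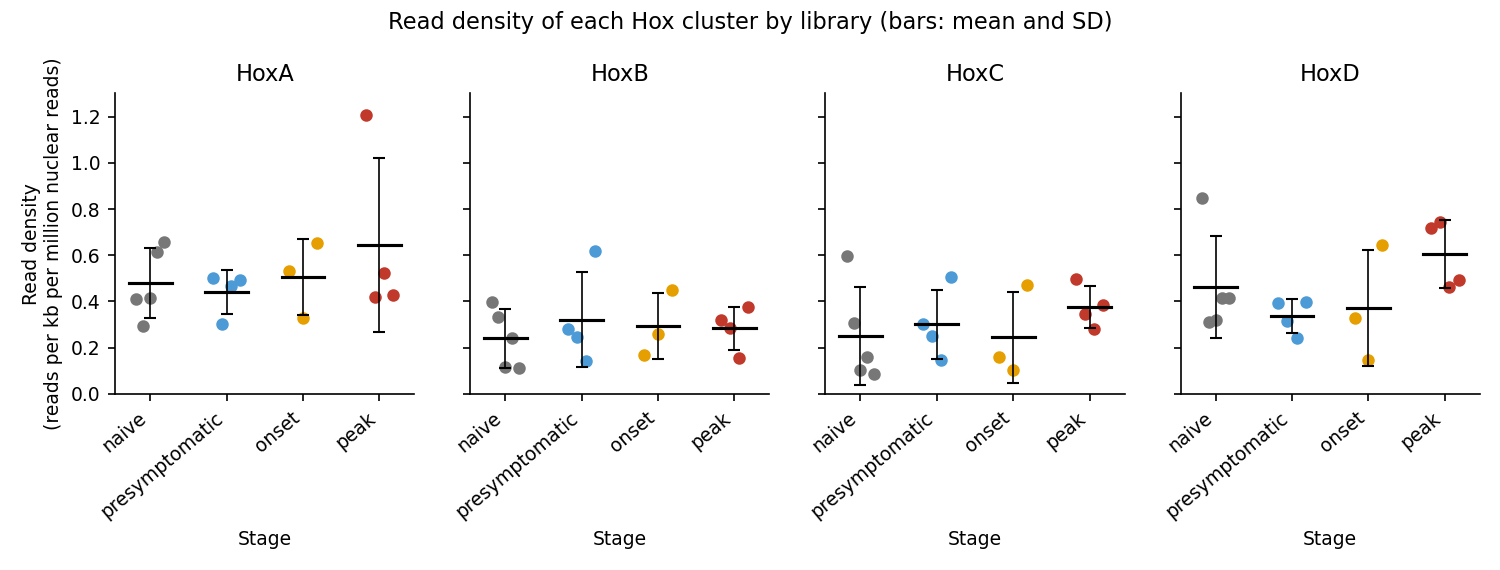
Read density of each cluster (vertical axis, reads per kb per M nuclear reads), 1 point per library by stage, with bars for the mean and SD. HoxB and HoxC points of all stages lie between 0.088 and 0.616, the HoxD peak points between 0.462 and 0.745, and 1 HoxA peak point stands alone at 1.21.

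Gene by gene, edgeR's quasi-likelihood test was fitted to all 29902 intervals with enough reads, among them 15 of the 39 Hox genes. Among these were Hoxa3, Hoxa9, Hoxa10 and Hoxa11, Hoxb3 and Hoxb6, Hoxc4, Hoxc6, Hoxc9 and Hoxc13, and Hoxd3, Hoxd4, Hoxd10 and Hoxd11. No Hox gene passed an adjusted p of 0.05 in any of the 6 comparisons between stages or in the F test for any difference between them, and no interval of the table did, so the background of calls was 0%. At an unadjusted p under 0.05 edgeR gave 0 of the 15 Hox genes for presymptomatic and for onset against naive, and 2 for peak against naive. The other counts were 0 for onset against presymptomatic, 2 each for peak against presymptomatic and against onset, and 0 for the F test, beside 3.16% of all intervals for the last. Values below are TMM-scaled counts-per-million (CPM), and fold changes are log2 with their SE.

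Presymptomatic and naive libraries were not separated at any Hox gene. Of the 15, 7 were higher and 8 lower, with a median log2 fold change of -0.06, as over all intervals (-0.06). An unadjusted p under 0.05 was reached by 0 of 15 Hox genes and by 1.16% of all intervals. Groups without overlap were found for 0 of 15, beside 0.846%. The smallest p among lower genes was that of Hoxd4, with 0.729, 0.870, 0.340 and 0 CPM in presymptomatic libraries, against 3.74, 0.480, 0.230, 1.48 and 0.473 CPM in naive libraries. Its fold change was -1.19 ± 0.80 (edgeR unadjusted p = 0.148, adjusted p = 1.00), and the groups overlapped, with naive replicate 1 far above the rest. Among the higher genes Hoxb3 came first, with 4.92, 4.50, 3.67 and 10.7 CPM in presymptomatic libraries, against 6.20, 7.00, 1.99, 3.79 and 1.498 CPM in naive libraries. It differed by 0.48 ± 0.43 (edgeR unadjusted p = 0.269). Next in each direction were Hoxd3 (-0.49 ± 0.36) and Hoxa10 (-0.52 ± 0.64), and Hoxc13 (0.64 ± 0.77) and Hoxa11 (0.65 ± 0.91).

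Onset against naive gave the same picture. Again 7 Hox genes were higher and 8 lower, with a median of -0.08 beside -0.01 over all intervals. None had an unadjusted p under 0.05 by edgeR, beside 4.95% of all intervals, and none had groups without overlap, beside 2.53%. Hoxd3 was first among lower genes, with 4.77, 2.86 and 9.95 CPM in onset libraries, against 14.7, 6.07, 5.75, 8.75 and 6.94 CPM in naive libraries. Its difference of -0.51 ± 0.39 had an unadjusted p of 0.194 and an adjusted p of 0.985 by edgeR, with overlapping groups. Hoxb3 was first among higher genes (0.39 ± 0.45), with 3.52, 4.76 and 7.79 CPM in onset libraries, inside the range of the naive values but for the highest. Hoxd11 (-0.70 ± 0.86), Hoxa10 (0.36 ± 0.66) and Hoxb6 (0.29 ± 0.69) followed. Rod markers were higher at onset for 11 of 11 (median 1.04), and 8 of them had an unadjusted p under 0.05 by edgeR. None of these markers passed the adjustment, and their part in the Hox values was not tested.

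Peak against naive was the comparison in which most Hox genes leaned one way. Of the 15, 12 were higher and 3 lower, with a median log2 fold change of 0.29, while the median over all intervals was -0.03. That median was 0.089 without peak replicate 1, 0.117 without naive replicate 2, 0.115 without naive replicate 3 and 0.472 without naive replicate 1. Some lists of cell type markers also leaned in this comparison. Others were mixed, with 6 of 11 rod, 4 of 7 cone and 4 of 8 endothelial and pericyte markers higher at peak. Markers of ganglion cells, the sorted type, were higher at peak for 14 of 17 (median 0.24). Those of Müller glia and astrocytes were lower for 8 of 9 (median -0.51), with a median density of 0.731 in peak and 0.999 in naive libraries. At an unadjusted p under 0.05 edgeR gave 0 of these 17 and 2 of these 9, beside 3.61% of all intervals. None of these markers passed the adjustment in edgeR, and their part in the Hox values was not tested. Hoxc6 and Hoxc13 had an unadjusted p under 0.05, which is 13.3% of the 15 beside 3.61% of all intervals, and neither passed the adjustment. Hoxc6, a gene of the thoracic region, had 4.82, 3.56, 2.41 and 1.87 CPM in peak libraries, against 2.14, 2.43, 0.689, 0.633 and 0.473 CPM in naive libraries. Its fold change was 1.304 ± 0.596 (edgeR unadjusted p = 0.0372, adjusted p = 1.00), and the 2 highest naive libraries overlapped the 2 lowest at peak. Hoxc13 had 2.27, 0.855, 2.09 and 2.49 CPM in peak libraries, against 1.28, 0.789, 0.306, 0.316 and 0.315 CPM in naive libraries. It differed by 1.65 ± 0.76 (edgeR unadjusted p = 0.0387, adjusted p = 1.00), with peak replicate 2 below naive replicate 1.

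Hoxa11, a limb and uterus gene, came next with 1.54 ± 0.89 (edgeR unadjusted p = 0.0960), on 0 to 12 reads per library. The gene lower at peak with the smallest p was Hoxc9, with 0.425, 0, 0.321 and 0 CPM in peak libraries, against 2.46, 0.137, 0.460, 0.738 and 0 CPM in naive libraries. Its difference of -1.76 ± 1.13 (edgeR unadjusted p = 0.131) was the lowest of the 15, in the same cluster as Hoxc6 and Hoxc13. Hoxc4 (-0.24 ± 0.56) and Hoxb6 (-0.17 ± 0.70) were the remaining lower genes. In 0 of the 15 did peak and naive libraries fail to overlap, beside 0.977% of all intervals. Leaving out peak replicate 1, or naive replicate 3, 4 or 5, took the unadjusted count from 2 to 0.

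**Figure D5:**
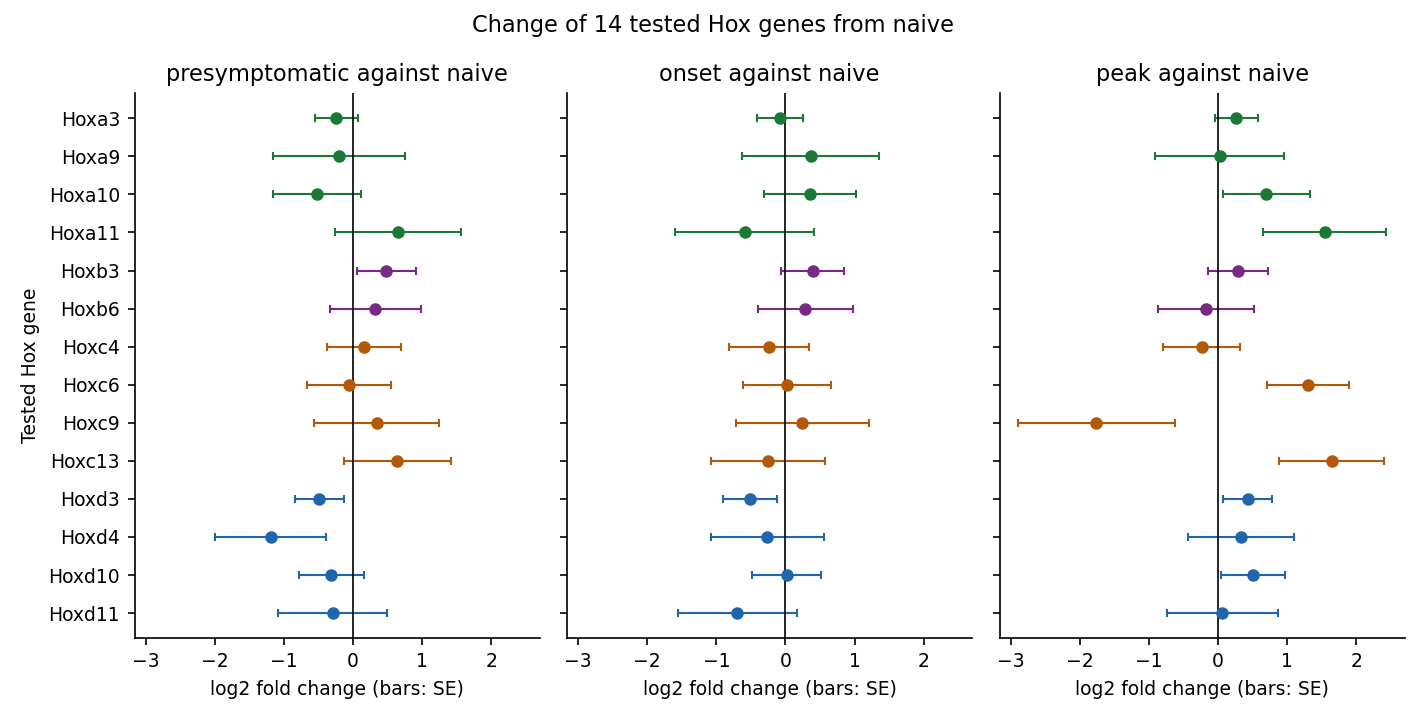
Log2 fold change from edgeR (horizontal axis, bars for the SE) of 14 tested Hox genes for presymptomatic, onset and peak libraries, each against naive, coloured by cluster. The points lie on both sides of 0 in the first panels, and most lie above 0 at peak, where Hoxc13 (1.65) is the highest and Hoxc9 (-1.76) the lowest.

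The peak libraries also stood against the other EAE stages. Against presymptomatic libraries 10 Hox genes were higher and 5 lower, with a median of 0.51 beside 0.03 over all intervals. Without presymptomatic replicate 2 this median was 0.31, without peak replicate 1 it was 0.33, and without presymptomatic replicate 4 it was 0.83. Hoxd3 had 12.6, 13.97, 9.64 and 8.71 CPM in peak libraries, against 7.60, 6.09, 3.81 and 6.52 CPM in presymptomatic libraries. The groups did not overlap, the only Hox gene of 15 (6.67%) for which that held here, beside 2.72% of all intervals. Its fold change was 0.92 ± 0.38 (edgeR unadjusted p = 0.0221, adjusted p = 0.999), and it had the smallest F test p of the Hox genes (edgeR unadjusted p = 0.0618). Hoxc6 was the other with an unadjusted p under 0.05, at 1.36 ± 0.65 (edgeR unadjusted p = 0.0442, adjusted p = 0.999). These 2 make 13.3% of the 15, beside 3.41% of all intervals. Hoxa10 followed at 1.22 ± 0.68, and the lower genes were led by Hoxc9 (-2.10 ± 1.16, edgeR unadjusted p = 0.0808), whose presymptomatic libraries had 0.972, 1.01, 0.408 and 1.40 CPM, of which 3 lay above every peak library. Hoxb6 was at -0.50 ± 0.74 and Hoxc4 at -0.40 ± 0.59.

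Peak against onset gave 11 higher and 4 lower, with a median of 0.48 beside 0.03, which was -0.078 without peak replicate 1 and 0.178 without onset replicate 2. Hoxd3 (0.94 ± 0.41, edgeR unadjusted p = 0.0288) and Hoxc13 (1.90 ± 0.89, edgeR unadjusted p = 0.0405) had an adjusted p of 0.737, and these 2 of 15 (13.3%) stand beside 6.65% of all intervals. Hoxd3 at peak overlapped onset replicate 3, at 9.95 CPM. Hoxa11 (2.13 ± 1.06) was next, and Hoxc9 (-2.005 ± 1.198), Hoxb6 (-0.46 ± 0.77) and Hoxa9 (-0.34 ± 1.10) led the lower genes. For Hoxc9 the onset libraries had 1.00, 0.220 and 1.38 CPM. None of the 15 Hox genes had groups without overlap, beside 6.75% of all intervals. Rod markers were lower at peak than at onset for 10 of 11 (median -1.01). Of these markers 7 had an unadjusted p under 0.05 by edgeR, and none passed the adjustment. The 3 comparisons with peak use the same 4 peak libraries, so their directions are not independent of each other.

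Onset against presymptomatic had 6 Hox genes higher and 9 lower, with a median of -0.04 beside 0.03, and 0 of 15 with an unadjusted p under 0.05 by edgeR, beside 4.13% of all intervals. Hoxa10 led the higher genes (0.88 ± 0.70, edgeR unadjusted p = 0.222), with 2.76, 1.14 and 2.95 CPM in onset libraries, against 2.43, 1.23, 0.816 and 0 CPM in presymptomatic libraries. Hoxa11 led the lower genes (-1.24 ± 1.06, edgeR unadjusted p = 0.248), with 0, 0.147 and 0.415 CPM in onset libraries, against 0.608, 0.145, 0.340 and 1.16 CPM in presymptomatic libraries. Both pairs of groups overlapped. Hoxd4 (0.93 ± 0.87), Hoxd10 (0.33 ± 0.53) and Hoxc13 (-0.90 ± 0.88) followed. Groups without overlap were found for 1 of the 15 (6.67%), beside 10.1% of all intervals. Rod markers were higher at onset than presymptomatic for 11 of 11 (median 1.23). Of these markers 8 had an unadjusted p under 0.05 by edgeR, and none passed the adjustment.

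The related genes behaved like the Hox genes in having no call by edgeR at any stage. At peak against naive, 5 of the 6 tested noncoding RNAs of the clusters were higher, with Haglr, which runs through HoxD, at 1.01 ± 0.49 (edgeR unadjusted p = 0.0474, adjusted p = 1.00). Of the 14 neighbours 11 were higher, with a median of 0.14, and of 27 other Polycomb targets 16 were, with a median of 0.13. The 9 TALE cofactors had 3 higher and 6 lower, and the 33 retinal homeobox genes 15 higher and 18 lower. Lnp, the long-range neighbour of HoxD known for limb expression under shared enhancers, was lower than naive at each EAE stage, at -0.88 ± 0.29 presymptomatic (edgeR unadjusted p = 0.00470), -0.88 ± 0.31 at onset and -0.65 ± 0.29 at peak. None of these passed the adjustment, and the 3 comparisons share the naive libraries. Hoxd3, across the cluster boundary, was at -0.49 presymptomatic, -0.51 at onset and 0.43 at peak, each against naive.

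The share of nuclear reads in receptor genes was fitted beside the stage means over the 16 libraries, to show which values follow it within stages. By edgeR, 17.9% of all intervals passed an adjusted p of 0.05, 11.1% higher and 6.75% lower per doubling of the share, and 0 of the 15 Hox genes did. Of the 15, 10 were lower as the share doubled, with a median of -0.30 beside -0.08 over all intervals. Hoxd11 (-1.52 ± 0.73, edgeR unadjusted p = 0.0435, adjusted p = 0.148) and Hoxb3 (-0.72 ± 0.36, edgeR unadjusted p = 0.0527) had the smallest p, while Hoxa3 was at 0.02 ± 0.26. The receptor share was 0.235% to 0.485% in peak and 0.192% to 0.559% in naive libraries.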

How the data were processed

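ATAC-seq libraries of sorted retinal ganglion cells (16, at 4 stages) were analysed from 1 table. The table holds counts, which the authors deposited as whole numbers of reads per gene interval without scaling. It also holds RPKM values, for which the authors divided these by each library's total and the interval's length, which is the span less 1000 bp at each end (2000 bp less the span for genes under 2000 bp); this reproduced a constant total per library to a relative 9.15e-14. Reads were processed with cutadapt, HISAT2 and HTSeq, per the submitters' processing notes; build, versions, duplicate treatment and transposase shift are not given in the sources used here. Coordinates are as deposited, and 28 of 39 Hox starts equal those of GRCm38.p6. All per-sample columns were mapped. At most 1.00% of intervals over 50 reads had equal counts in any 2 libraries.

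Density divided reads by interval length and by M (megareads) of nuclear reads in intervals. Cluster sums count overlapping intervals separately. Counts were tested with edgeR 4.0.16 (limma 3.58.1, R 4.3.3; filterByExpr with a minimum count of 10, TMM, 1 mean per stage), adjusted by Benjamini-Hochberg over 29902 intervals with mitochondrial ones kept, and checked against DESeq2 1.42.0 and limma voom with quality weights. The scripts were tested on simulated data. The design had foreseen a background of receptor genes, computed here over their intervals. Paralog ratios were tested by a two-sided paired permutation test in Python 3.11.15 with scipy 1.17.1.

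The named genes are, per cluster, the tested members of highest and lowest density with at least 500 bp, per comparison the 3 of smallest p in each direction, and the smallest F test p; list genes have the smallest p of their list, and those named by density were chosen after their values were seen. Some genes within these rules are not reported here. Members and lists were chosen with earlier results of these data known. No interval is given for counts beyond the limit of 3 reads at 0.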

Additional observations from a re-analysis of the deposited data

Results flagged for a closer look

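Values that lie apart from the other libraries of their stage were looked for in 60 groups of 4 or 5 libraries, and 6 were found, where chance gives about 1 in 20. Peak replicate 1 had a HoxA density of 1.21 reads per kb per M nuclear reads, next to 0.524 in the nearest peak library, and a Hoxa3 density of 1.10, next to 0.529. Hoxa3 held 157 of the 237 HoxA reads of peak replicate 1, so these values are not independent. Outside the Hoxa3 interval, Hoxa10 (1.735) and Hoxa11 (1.73) were denser than Hoxa3 in peak replicate 1, and Hoxa7 (0.621) and Hoxa9 (0.519) less dense. Naive replicate 1 had a HoxD density of 0.846, next to 0.417, a Hoxc4 density of 0.779, next to 0.2996, and a Hoxc9 density of 0.909, next to 0.257. That library had 4.67 M nuclear reads and a receptor share of 0.263%, the lowest depth of the naive libraries and a share inside their range. Peak replicate 3 had 0 reads over Hoxb6, next to 0.433 in the nearest peak library, and with 3.45 M nuclear reads a count of 0 allows up to 3 reads.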

How the results depend on the processing

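Over 140 refits no Hox gene passed the threshold. The refits changed scaling, filter, tool, samples, covariate or mitochondrial intervals, added the replicate block, or left out libraries; any interval at all passed in 5 of them, at most 5 intervals, with DESeq2. The median log2 fold change of the tested Hox genes, with a spread of 0.53, stayed within the spread in 111 of 114 values. Leaving out 1 library gave 0.089 to 0.472 for peak against naive, 0.31 to 0.83 for peak against presymptomatic, -0.68 (without onset replicate 3) to 0.25 for onset against naive, -0.69 (without onset replicate 3) to 0.25 for onset against presymptomatic, and -0.078 (without peak replicate 1) to 0.70 for peak against onset; the cause was not tested. HoxA density was 0.295 as a median over members, which short genes with 0 reads lower, and per M reads of all intervals, a larger total that takes in mitochondrial reads, HoxA was 0.283 and HoxD 0.240.

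Counts at an unadjusted p under 0.05 ranged over the alternatives from 0 to 1 for presymptomatic against naive (0 as reported) and for onset against presymptomatic (0), from 0 to 3 for onset against naive (0; voom 3, without onset replicate 3 it was 2) and for the F test (0), from 0 to 3 for peak against naive (2), from 0 to 3 for peak against presymptomatic (2) and from 0 to 5 for peak against onset (2; DESeq2 and voom 4 each). With the replicate block they were 0 for peak against naive and 1 for peak against onset, and 0 Hox genes passed the threshold. The number of Hox genes tested moved with the setting, from 7 at a minimum count of 30 to 39 without a filter. The count over all intervals moved too. For onset against naive, voom gave 3 of 15 Hox genes beside 1698 of 29902 intervals. For peak against naive, no filter gave 3 of 39 beside 1428 of 36420, and the replicate block 0 of 15 beside 784 of 29902. These ranges are therefore not read as results about the Hox genes. Same-numbered libraries had correlations of -0.342 to 0.373 (median -0.00586, 21 pairs), and differently numbered ones -0.335 to 0.3365 (median 0.0126, 74 pairs). Pairing by number was thus not visible on this measure, which cannot exclude that same-numbered libraries were prepared together. The paralog ratios kept their call in 48 of 48 values, with log2 ratios of 0.97 to 1.2 for Hoxa3 to Hoxb3 and 0.78 to 0.98 for Hoxd3 to Hoxb3. Depth limits these results, since 24 of the 39 genes had too few reads to test.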
